A study of Mus musculus with 81 samples.

Results

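The genes described here are the mouse zinc finger genes with symbols from Zfp900 to Zfp999, taken from the array platform's gene table. A gene was included when at least 1 probe set carried that symbol and no other, and the brightest such probe set by mean log2 intensity stood for the gene. This gave 34 genes with 36 probe sets, of 19752 genes and 24922 probe sets measured. The numbers are a naming series and not a gene family tree. The rule that chose the genes used no measured value, but it was set with earlier results of these data known. The study measured RNA of bone marrow neutrophils, sorted as CD11b+ Ly6G+ cells, from male mice aged 6 weeks by the sample labels (obtained at a younger age, per the series design) of many inbred strains, untreated and without engineered alleles as far as the labels say. Each of the 81 Affymetrix whole-transcript arrays held RNA pooled from several mice, and pools stand as replicates of a strain. Titles put the arrays in 40 groups: C57BL/6J with 5 arrays, FVB/NJ and SWR/J with 1 each, and 37 groups with 2.

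The series text counts 39 strains, and 5 groups have a background label that names another strain than the title does. These groups are called by their titles: titled BPL (background label BALB/cByJ), titled BTBR (BPL/1J), titled Balb (BTBR T+ tf/J), titled C57BR (CBA/CaJ) and titled DBA2 (DBA/1LacJ). The other groups are 129S1/SvImJ, A/J, AKR/J, C3H/HeJ, C57BL/10J, C57BLKS/J(662), C57L/J (668), CAST/EiJ, CBA/CaJ, CBA/J, CE/J, DDY/JclSidSeyFrkJ, JF1/Ms, KK.Cg-Ay/J, LGJ, LP/J(676), MA/MyJ, MRL/MpJ, MSM/Ms, NOD/ShiLtJ, NON/ShiLtJ, NOR/LtJ, NZB/BINJ, NZW/LacJ, P/J, PL/J, PWD/PHJ, RIIIS/J, SEA/GnJ, SJL/J, SM/J and WSB/EiJ. KK.Cg-Ay/J carries the Ay allele of the agouti locus by its name. WSB/EiJ, PWD/PHJ, CAST/EiJ, MSM/Ms and JF1/Ms are wild-derived or of Japanese mouse descent. These 5 are called wild-derived here by common knowledge of their names, and the other 35 groups classical.

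Most genes of this kind encode proteins with a run of C2H2 zinc fingers, each a small loop that holds a zinc ion and reads a few bases of DNA, and many also carry a KRAB domain. The KRAB domain binds TRIM28, which brings the histone methyltransferase SETDB1 and heterochromatin proteins to the site, and many proteins of this class are known to silence endogenous retroviruses and other mobile elements. In rodents these genes lie in clusters of recently duplicated copies, and the clusters differ between mouse strains in copy number and sequence.

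Values are log2 probe set intensities, and differences are differences of log2 intensity, so that a difference of 1 is 2-fold. Array medians lay between 97.2 and 114.8 intensity units, and precision is limited by how few arrays each strain has. The 8 neutrophil markers (S100a8, S100a9, Ly6g, Itgam, Csf3r, Mmp9, Camp and Ltf) had strain means of their list between 13.21 in MSM/Ms and 13.37 in SEA/GnJ, high in every strain, and 6 of the 8 passed the strain test described next. The 2 arrays of NZB/BINJ stood apart from each other, with a correlation over all probe sets of 0.976 against at least 0.986 within every other strain, and the first of them was the lowest of all 81 arrays for 7 of the 34 genes. The counts and correlations that rest most on NZB/BINJ are also given without it. The array probes follow the C57BL/6J reference sequence, so a variant under a probe can lower the intensity in another strain, and near-identical gene copies can share signal. Neither was separated here from the transcript level, and fewer cells of a type and less RNA per cell cannot be told apart.

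Strain differences among these genes were common and some were very large. In limma's moderated F test over the 40 strains, 24 of the 34 genes (70.6%) passed an adjusted p of 0.05, where 56.0% of all probe sets did. Of these, 16 genes (47.1% of the 34) also had strain means spanning 2-fold or more, against 24.5% of all probe sets. Among the 282 other numbered Zfp genes, 177 (62.8%) passed and 76 (27%) had the 2-fold range. The SD of the 40 strain means had a median of 0.23 over the 34 genes, 0.15 over the other numbered Zfp genes and 0.14 over all genes. These shares and medians describe the sets and were not tested against each other. An SD of at least 0.5 was measured for 6 of the 34 genes (17.6%), for 1 of the 282 other Zfp genes (0.355%) and for 3.87% of all genes. The 6 genes were Zfp979, Zfp971, Zfp949, Zfp961, Zfp991 and Zfp985. Without NZB/BINJ 23 genes passed, 16 of them with a 2-fold range.

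**Figure D1:**
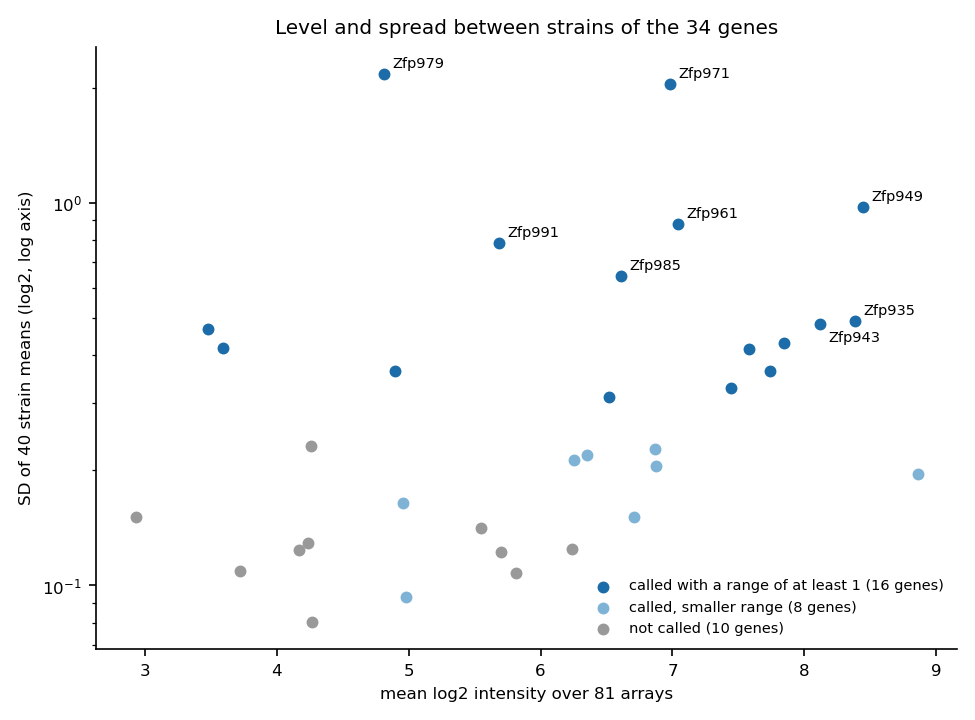
Mean log2 intensity over 81 arrays (horizontal axis) and SD of the 40 strain means (vertical, log axis) of the 34 genes, 1 point per gene, with the 8 largest SDs named. Zfp979 (2.17) and Zfp971 (2.05) stand above all others, and the 10 genes that did not pass the F test, in grey, have SDs of at most 0.23.

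Not every gene could show a difference equally well. Of the 34 genes 17 had no strain mean of 7 or more, a level below which array signals were treated as dim. All 9 genes with a mean over all arrays of at least 7 passed the test, 8 of them with a 2-fold range, against 84.9% and 42.5% of all probe sets with such a mean. The residual SD, the spread between arrays of a strain pooled over all strains, ran from 0.08 to 0.38 over the 34 genes with a median of 0.20.

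**Figure D2:**
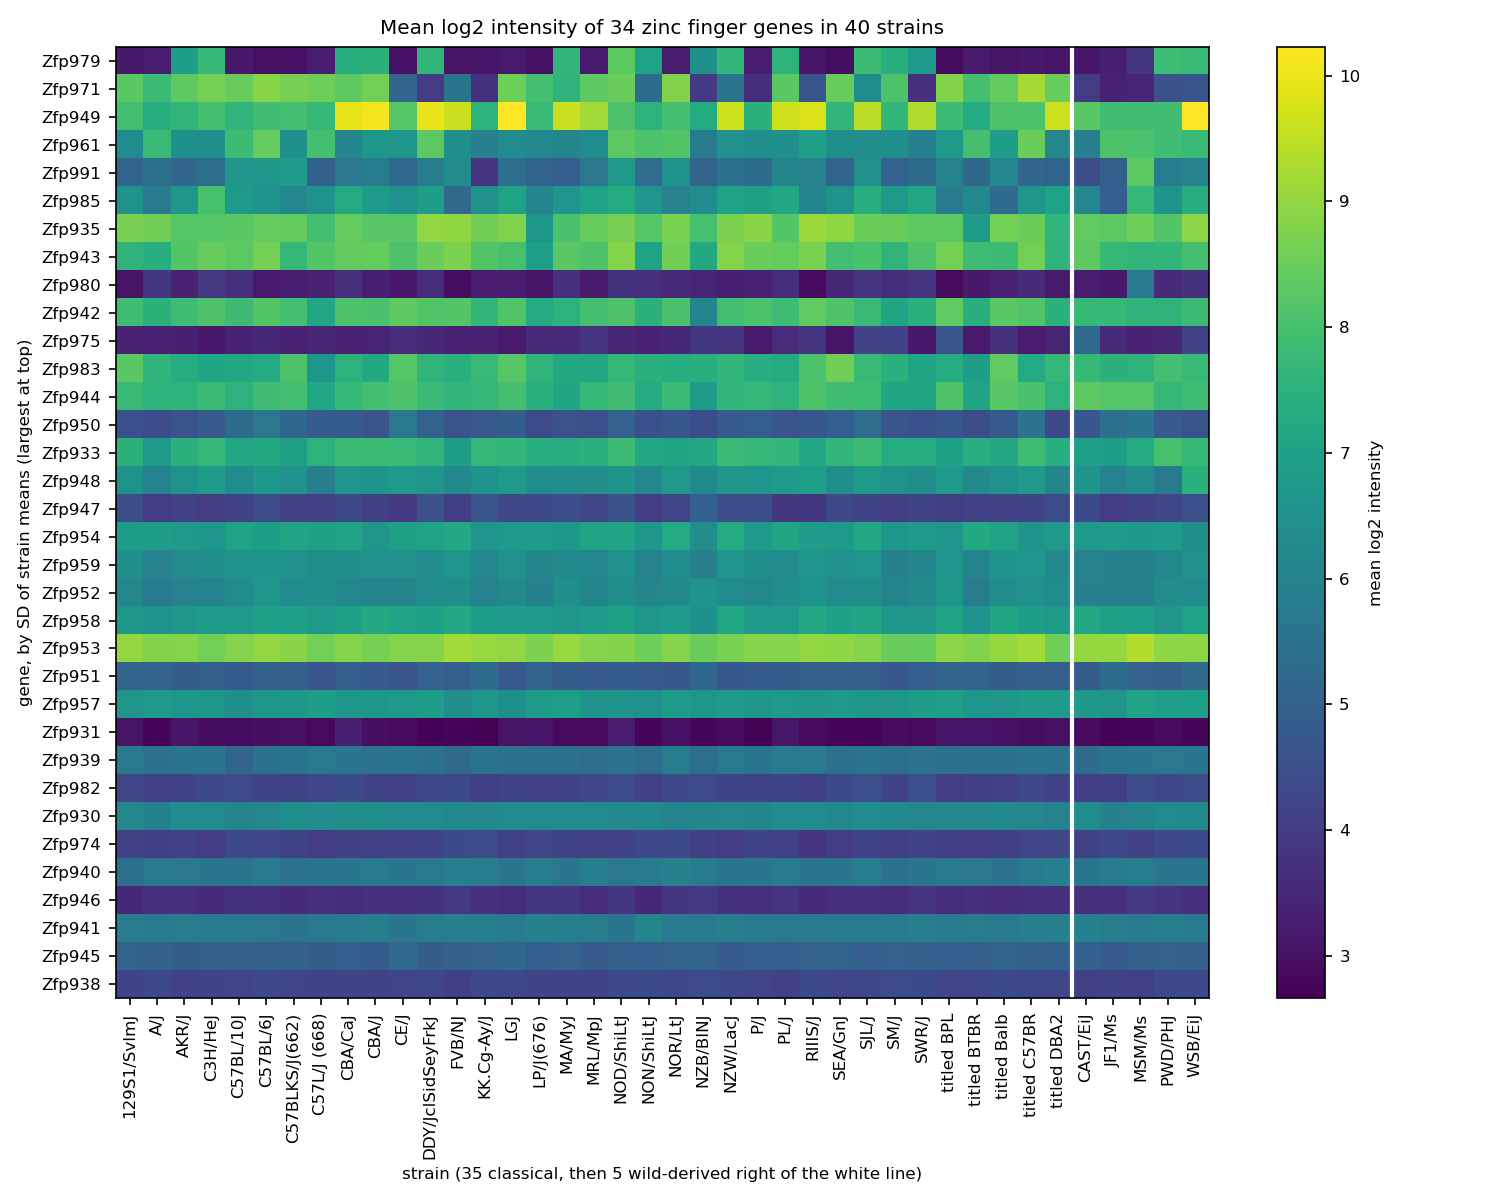
Strain means of log2 intensity (colour) of the 34 genes (rows, largest SD of strain means at the top) in 40 strains (columns, 35 classical and then 5 wild-derived). Zfp979 and Zfp971 switch between dark and bright from strain to strain, while most rows in the lower part keep their colour.

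Zfp979 had the largest SD of strain means. RefSeq gives Ssm1b as a synonym of this gene, the name of a known strain-specific modifier under which a transgene is methylated in mouse embryos. Its strain means ran from 2.91 in titled BPL over a median of 3.27 to 8.32 in NOD/ShiLtJ (SD 2.17, adjusted p = 6.39e-38, limma F test). The values fell into a low and a high set with nothing between 3.85 and 6.46. The high set held 16 strains: NZB/BINJ at 6.46, SWR/J at 6.77, AKR/J at 6.87, NON/ShiLtJ at 7.06, SM/J at 7.40, CBA/CaJ at 7.42, CBA/J at 7.54, PL/J at 7.56, MA/MyJ at 7.65, NZW/LacJ and DDY/JclSidSeyFrkJ both at 7.66, C3H/HeJ at 7.74, WSB/EiJ at 7.78, SJL/J at 7.85, PWD/PHJ at 7.88 and NOD/ShiLtJ at 8.32. Every array of the high set was above every array of the low set, although SJL/J had arrays at 8.32 and 7.37 and NZB/BINJ at 5.77 and 7.14. Most neighbours in this order differed by less than the spread between arrays of a strain. The 24 low strains ended with MSM/Ms at 3.85. The 5 arrays of C57BL/6J, the strain of the probe sequence, were low at 3.09, 3.03, 2.94, 3.01 and 3.01. Detection calls were not used here, and whether a value near 3 lies above background was not tested.

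Zfp979 lies on mouse chromosome 4 in a run of 6 of these genes, in the RefSeq order Zfp980, Zfp991, Zfp982, Zfp985, Zfp979 and Zfp933, with at most 7 protein-coding genes between consecutive members. Of these, 5 passed the F test with a 2-fold range. The promoter windows of Zfp979, Zfp980 and Zfp985 (250 bases before to 50 after the annotated start, RefSeq on GRCm38.p6) are shown because they are near copies of each other, while the highest strain of each gene was another. Capitals mark CCAAT and GGGCGG boxes on either strand (CCAAT or ATTGG, and GGGCGG or CCGCCC), which overlap in the run ATTGGGCGG. The windows are chr4:147642459-147642758 (minus strand) for Zfp979, chr4:145670447-145670746 (plus strand) for Zfp980 and chr4:147553027-147553326 (plus strand) for Zfp985.
Zfp979: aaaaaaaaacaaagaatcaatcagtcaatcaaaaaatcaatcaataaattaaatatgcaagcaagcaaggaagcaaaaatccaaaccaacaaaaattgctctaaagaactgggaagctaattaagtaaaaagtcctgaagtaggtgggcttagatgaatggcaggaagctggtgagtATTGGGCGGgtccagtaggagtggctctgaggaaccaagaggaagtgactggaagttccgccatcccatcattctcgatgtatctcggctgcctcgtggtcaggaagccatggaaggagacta
Zfp980: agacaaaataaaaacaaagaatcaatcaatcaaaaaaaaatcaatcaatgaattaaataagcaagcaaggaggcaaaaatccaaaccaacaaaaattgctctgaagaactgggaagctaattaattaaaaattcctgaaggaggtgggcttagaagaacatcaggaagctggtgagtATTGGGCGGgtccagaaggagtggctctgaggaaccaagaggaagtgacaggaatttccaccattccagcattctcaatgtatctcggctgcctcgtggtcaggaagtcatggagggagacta
Zfp985: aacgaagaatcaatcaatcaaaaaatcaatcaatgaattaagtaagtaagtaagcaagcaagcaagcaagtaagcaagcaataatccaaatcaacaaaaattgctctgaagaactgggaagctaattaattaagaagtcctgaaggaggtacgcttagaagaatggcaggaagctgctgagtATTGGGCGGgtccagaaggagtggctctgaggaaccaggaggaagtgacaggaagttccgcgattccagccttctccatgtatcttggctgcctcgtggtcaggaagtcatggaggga
In a global alignment 91.0% of the 300 bases were identical between Zfp979 and Zfp980, 84.67% between Zfp979 and Zfp985 and 85.0% between Zfp980 and Zfp985. All 3 windows hold the joined ATTGGGCGG box.

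Zfp980 was dim in all strains and highest in MSM/Ms, where its 2 arrays measured 5.29 and 6.29 (mean 5.79). The other 39 strain means lay between 2.85 in titled BPL and 3.93 in C3H/HeJ (adjusted p = 8.43e-07, limma F test). Zfp979 in MSM/Ms, with arrays at 3.99 and 3.70, was in the low set. Zfp985 was spread more evenly, from 4.92 in JF1/Ms over a median of 6.61 to 8.02 in C3H/HeJ (SD 0.64, adjusted p = 2.6e-17, limma F test). Its lowest strains were JF1/Ms (arrays 4.87 and 4.98), FVB/NJ (5.28) and titled Balb (5.29 and 5.34), and its highest were C3H/HeJ (8.12 and 7.91) and MSM/Ms (7.71 and 7.66). Zfp985 is the only one of the 34 genes with 3 probe sets of its own. The other 2 had means of 4.51 and 4.04, correlated with the brightest at r = 0.83 and 0.59 over the 40 strains, and were highest in WSB/EiJ.

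Zfp991 was highest in MSM/Ms, with arrays at 8.52 and 8.15, and the next strain, C57BLKS/J(662), had a mean of 6.81. It was lowest in KK.Cg-Ay/J at 4.08 and 3.60, with a median over strains of 5.43 (SD 0.78, adjusted p = 2.19e-16, limma F test). C57BL/6J (6.67), C57BL/10J (6.60) and C57BLKS/J(662) were among the highest classical strains, while C57L/J (668) at 5.02 and titled C57BR at 5.16 were lower. MSM/Ms was thus the highest strain for both Zfp980 and Zfp991. Zfp933 ran from 6.78 in A/J to 8.03 in PWD/PHJ around a median of 7.46 (SD 0.33, adjusted p = 3.85e-08, limma F test). Zfp982 did not pass (adjusted p = 0.418, limma F test), with strain means from 4.00 to 4.52.

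Zfp971, with the synonym Etohi1 in RefSeq, had the next largest SD and lies on chromosome 2 next to Zfp931, with no protein-coding gene between them. Its strain means ran from 3.42 in JF1/Ms over a median of 8.06 to 9.21 in titled C57BR (SD 2.05, adjusted p = 3.42e-29, limma F test). Here 24 strains were high, between 7.58 in MA/MyJ and 9.21, and 16 were lower, at 6.34 or less. C57BL/6J was among the high strains, with arrays at 9.28, 8.56, 8.74, 9.0 and 8.82. The low strains were spread out: JF1/Ms at 3.42, MSM/Ms at 3.48, P/J at 3.66, SWR/J at 3.69, KK.Cg-Ay/J at 3.76, NZB/BINJ at 3.96, CAST/EiJ at 4.00, DDY/JclSidSeyFrkJ at 4.01, PWD/PHJ at 4.53, WSB/EiJ at 4.69, RIIIS/J at 4.70, CE/J at 5.14, NON/ShiLtJ at 5.35, FVB/NJ and NZW/LacJ both at 5.58 and SJL/J at 6.34. Replicate arrays of the lower strains lay far apart in some, as in NZW/LacJ at 6.10 and 5.06 and NZB/BINJ at 3.30 and 4.63, so their order among themselves is not settled. All arrays of SJL/J (6.66 and 6.03), the highest of the lower strains, were below both arrays of MA/MyJ (7.55 and 7.61). Zfp971 also had the largest residual SD of the 34 genes, 0.38.

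Zfp931 measured 2.66 to 3.32 over the strains and did not pass the F test (adjusted p = 0.474). Its strain means had r = 0.70 with those of Zfp971 over 40 strains (0.69 without NZB/BINJ). The promoter windows of both genes are shown because they are near copies, with 87.33% of bases identical in a global alignment. The genes point toward each other, with the window of Zfp971 at chr2:178023034-178023333 on the plus strand and that of Zfp931 at chr2:178078376-178078675 on the minus strand (RefSeq, GRCm38.p6, capitals as above).
Zfp971: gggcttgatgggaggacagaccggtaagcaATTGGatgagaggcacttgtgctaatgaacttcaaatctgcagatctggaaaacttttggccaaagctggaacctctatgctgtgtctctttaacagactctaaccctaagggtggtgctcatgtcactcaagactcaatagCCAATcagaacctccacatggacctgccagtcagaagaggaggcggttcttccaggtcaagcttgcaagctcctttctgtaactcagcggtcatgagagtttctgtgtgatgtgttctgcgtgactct
Zfp931: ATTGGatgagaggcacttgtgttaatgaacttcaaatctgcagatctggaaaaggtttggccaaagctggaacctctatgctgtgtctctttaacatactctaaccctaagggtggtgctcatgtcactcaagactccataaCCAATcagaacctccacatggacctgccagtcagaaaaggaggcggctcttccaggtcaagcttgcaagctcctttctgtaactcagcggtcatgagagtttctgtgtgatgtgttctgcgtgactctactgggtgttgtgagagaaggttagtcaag
Each window holds CCAAT boxes facing both ways and no GGGCGG box. Whether probes of Zfp931 also capture Zfp971 RNA was not tested.

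Zfp949, on chromosome 9, was high in 14 strains and lower in 26. Its strain means ran from 7.33 in titled BTBR over a median of 7.98 to 10.23 in WSB/EiJ (SD 0.97, adjusted p = 7.85e-24, limma F test). The high set began with MRL/MpJ at 9.18, SWR/J at 9.34 and SJL/J at 9.45, and went on with FVB/NJ at 9.62, MA/MyJ at 9.63, NZW/LacJ at 9.65, titled DBA2 at 9.66, PL/J at 9.67, RIIIS/J at 9.80, CBA/CaJ at 9.93, DDY/JclSidSeyFrkJ at 9.96, CBA/J at 10.08, LGJ at 10.21 and WSB/EiJ at 10.23. The highest of the lower strains were CE/J at 8.25 and CAST/EiJ at 8.29, with single arrays up to 8.34, below the lowest array of the high set, MRL/MpJ at 9.07. C57BL/6J, with arrays at 7.64, 8.02, 7.86, 8.17 and 7.92, was in the lower set.

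Zfp961, on chromosome 8, showed the reverse for C57BL/6J. Strain means ran from 5.75 in NZB/BINJ (5.91 in CAST/EiJ, the next strain) over a median of 6.47 to 8.54 in titled C57BR (SD 0.88, adjusted p = 7.87e-25, limma F test). The 14 high strains were WSB/EiJ at 7.76, A/J at 7.78, C57BL/10J at 7.84, PWD/PHJ at 7.91, C57L/J (668) at 7.96, titled BTBR at 7.99, MSM/Ms at 8.10, NON/ShiLtJ and JF1/Ms both at 8.11, NOR/LtJ at 8.17, DDY/JclSidSeyFrkJ and NOD/ShiLtJ both at 8.33, C57BL/6J at 8.43 and titled C57BR at 8.54. The 5 arrays of C57BL/6J measured 8.41, 8.16, 8.48, 8.55 and 8.56. C57BLKS/J(662) was the exception among the groups with C57 in their names, with arrays at 6.26 and 6.64. The 26 lower strains ended at 6.92 in RIIIS/J, and their highest array, 7.14 in titled Balb, was below the lowest array of the high set, 7.68 in WSB/EiJ.

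**Figure D3:**
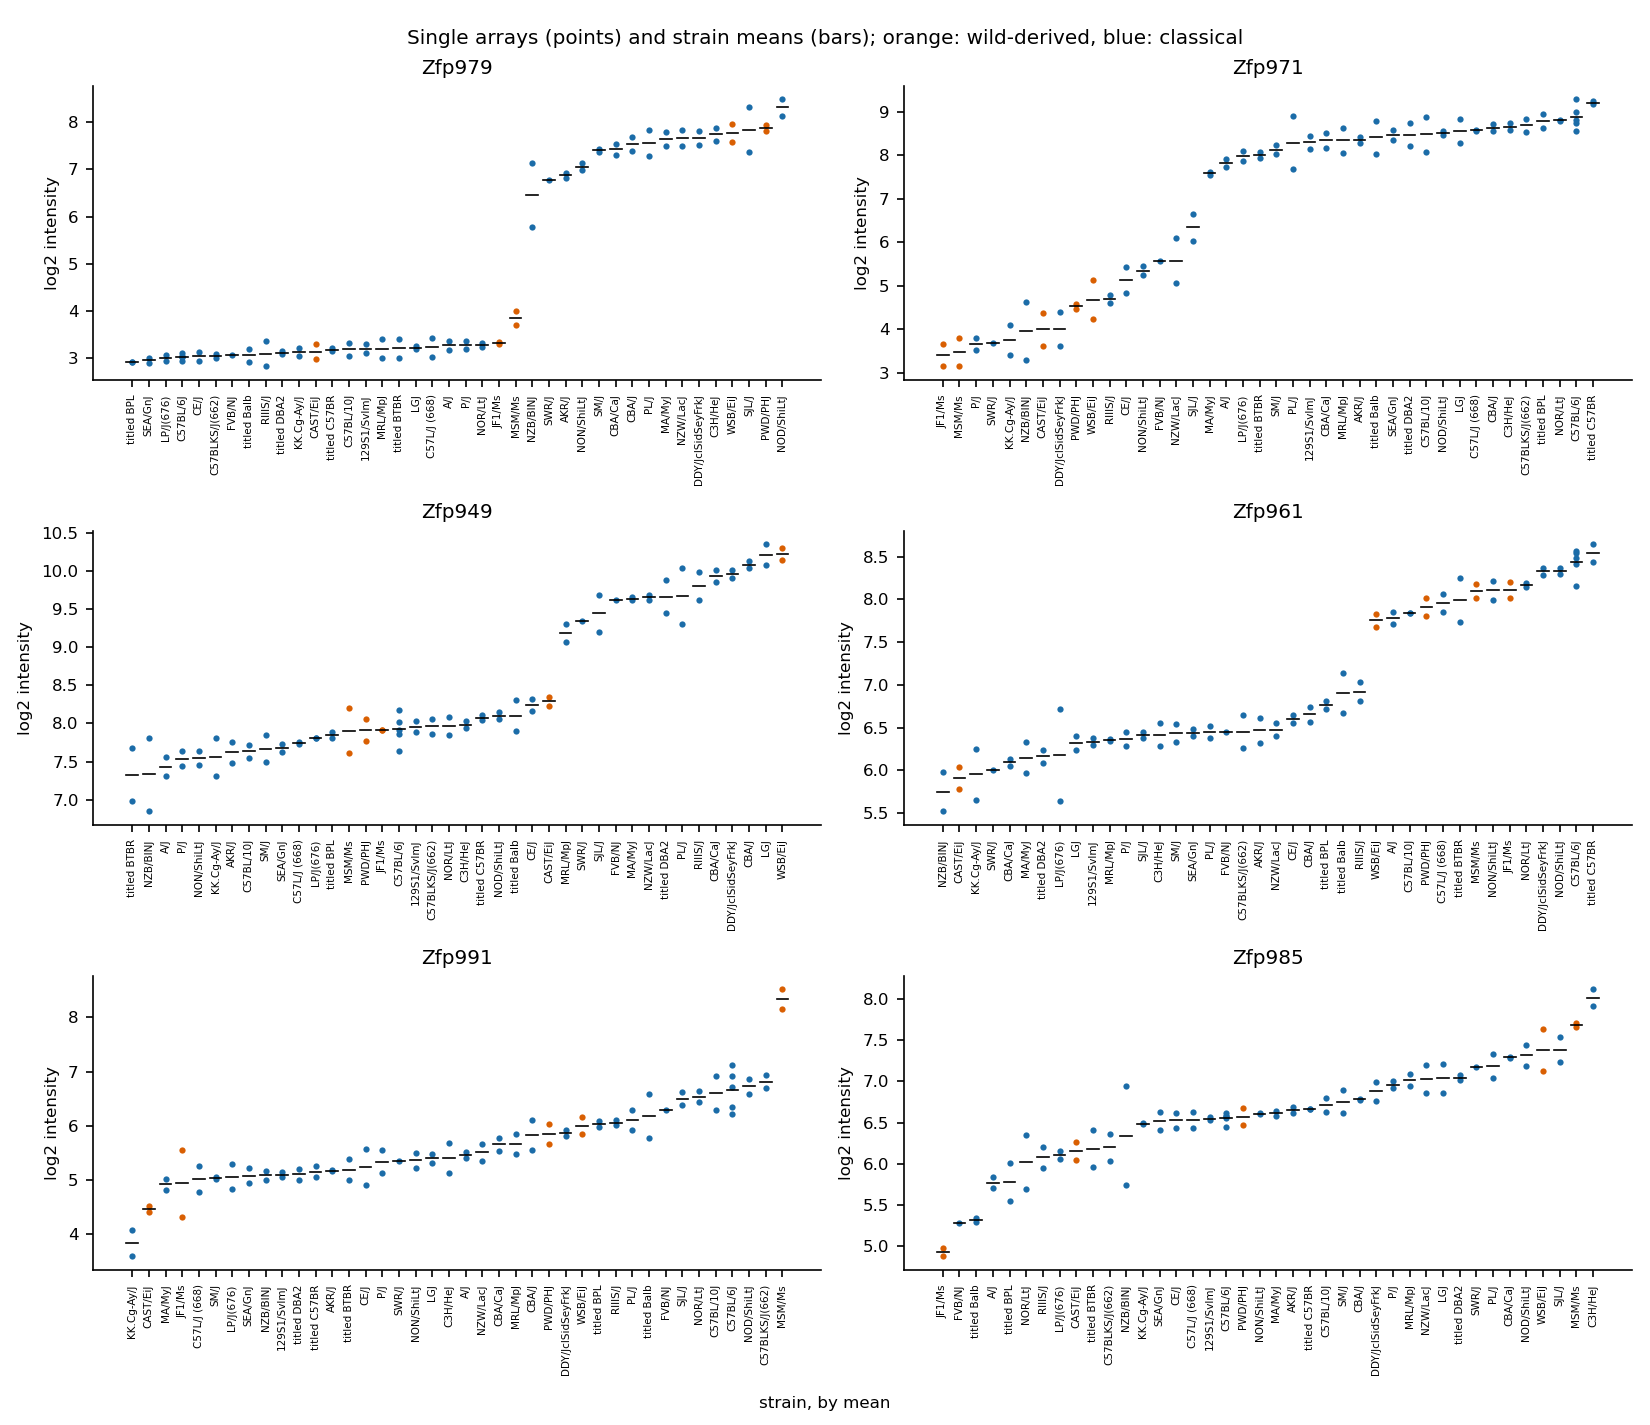
Log2 intensity of single arrays (points) and strain means (bars) of the 6 genes with the largest SD of strain means, each panel with its strains in order of the mean, wild-derived strains in orange and classical in blue. Zfp979 jumps from 3.85 to 6.46 between neighbouring strains, Zfp949 and Zfp961 show smaller steps, and MSM/Ms stands alone at the top of Zfp991.

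Both labels of the group titled C57BR can be set beside these steps. Zfp979 was 3.18 there and 7.42 in CBA/CaJ, the strain of its background label, Zfp961 was 8.54 against 6.09 and Zfp949 8.08 against 9.93. In C57BL/6J the same genes were 3.02, 8.43 and 7.92.

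Of the 34 genes 8 lie in a second run on chromosome 17, in the order Zfp948, Zfp983, Zfp942, Zfp943, Zfp947, Zfp944, Zfp946 and Zfp945. Of these, 6 passed the F test, 5 of them with a 2-fold range. The promoter windows of Zfp942 and Zfp944 are printed because 91.33% of their bases are identical in a global alignment and their genes had r = 0.73 across strains. They are chr17:21962415-21962714 and chr17:22361351-22361650, both on the minus strand (RefSeq, GRCm38.p6, capitals as above).
Zfp942: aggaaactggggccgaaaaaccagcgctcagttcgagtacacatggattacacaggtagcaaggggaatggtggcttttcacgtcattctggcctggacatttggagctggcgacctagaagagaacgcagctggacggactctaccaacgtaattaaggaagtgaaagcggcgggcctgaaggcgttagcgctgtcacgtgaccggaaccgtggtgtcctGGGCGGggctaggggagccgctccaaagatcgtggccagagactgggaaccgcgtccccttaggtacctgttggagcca
Zfp944: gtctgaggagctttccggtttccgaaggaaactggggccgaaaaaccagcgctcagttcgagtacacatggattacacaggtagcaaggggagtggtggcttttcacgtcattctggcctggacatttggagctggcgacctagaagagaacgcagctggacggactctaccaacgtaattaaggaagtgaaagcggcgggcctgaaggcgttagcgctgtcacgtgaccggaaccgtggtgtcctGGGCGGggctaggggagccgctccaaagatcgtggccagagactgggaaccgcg
Each holds a single GGGCGG box and no CCAAT box. The window of Zfp943 overlaps that of Zfp942 on the opposite strand, so that these neighbours start from the same stretch of DNA.

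Zfp942 ran from 6.14 in NZB/BINJ over a median of 7.88 to 8.39 in RIIIS/J (SD 0.43, adjusted p = 4.53e-07, limma F test). NZB/BINJ was set apart by a gap to SM/J at 7.14, and its arrays measured 5.35 and 6.93. Without NZB/BINJ the SD was 0.34 (adjusted p = 1.81e-06, limma F test). Zfp944 was lowest in NZB/BINJ too, at 6.83 (arrays 6.16 and 7.51), and highest in CAST/EiJ at 8.36 (SD 0.36, adjusted p = 5.52e-06, limma F test), and without NZB/BINJ its SD was 0.34. Zfp943 ran from 6.96 in LP/J(676) to 8.82 in NOD/ShiLtJ and in NZW/LacJ around a median of 8.18 (SD 0.48, adjusted p = 3.17e-11, limma F test). NON/ShiLtJ (arrays 6.97 and 7.14) and NZB/BINJ (6.91 and 7.60) were next to LP/J(676) (6.77 and 7.16), and these did not differ beyond their spread.

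Zfp983 ran from 6.62 in C57L/J (668), with arrays at 6.92 and 6.33, to 8.59 in SEA/GnJ, with arrays at 8.51 and 8.67 (median 7.54, SD 0.41, adjusted p = 1.11e-09, limma F test). Zfp948 was highest in WSB/EiJ, with arrays at 7.45 and 7.53, against 6.94 in the next strain, RIIIS/J, and lowest in PWD/PHJ at 5.76 (adjusted p = 5.03e-08, limma F test). Zfp945 passed (adjusted p = 0.0139, limma F test) with a range of only 4.82 to 5.24. Zfp946 and Zfp947 did not pass, at adjusted p = 0.316 and 0.168 (limma F test).

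The remaining genes with a 2-fold range lie apart from these runs. Zfp935, on chromosome 13, was low in only 2 groups, LP/J(676) with arrays at 6.32 and 7.01 and titled BTBR with arrays at 6.86 and 6.82, and the other 38 had means between 7.64 in titled DBA2 and 9.09 in RIIIS/J (SD 0.49, adjusted p = 4.26e-10, limma F test). Zfp950, on chromosome 19, was dim in all strains, from 4.37 in titled DBA2 to 5.70 in CE/J, with C57BL/6J second from the top at 5.65 (adjusted p = 3.01e-10, limma F test). Zfp975, on chromosome 7, was dim in all strains too. It was highest in CAST/EiJ, with arrays at 5.60 and 4.90, then in titled BPL at 4.76 and 4.49. Its median was 3.46 (adjusted p = 6.13e-07, limma F test).

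The other 8 genes that passed had ranges under 2-fold. They were Zfp945, Zfp951, Zfp952, Zfp953, Zfp954, Zfp957, Zfp958 and Zfp959, with SDs of strain means between 0.09 and 0.23. NZB/BINJ was the lowest strain for Zfp954 (6.36), Zfp958 (6.46) and Zfp959 (5.96), and for 6 of the 34 genes in all. Without it the lowest strains of these 3 were WSB/EiJ (6.43), titled BTBR (6.52) and JF1/Ms (5.97). Zfp953 ran from 8.48 in SWR/J to 9.34 in MSM/Ms (adjusted p = 0.00835, limma F test). The 10 genes that did not pass were Zfp930, Zfp931, Zfp938, Zfp939, Zfp940, Zfp941, Zfp946, Zfp947, Zfp974 and Zfp982, all with means over the arrays of 6.24 or less. A p above the threshold does not show that their levels were the same in all strains.

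Wild-derived and classical strains were compared with each strain mean counted as 1 replicate. Some strains share ancestry, as JF1/Ms and MSM/Ms do, and the test treats them as independent. None of the 34 genes was higher in the 5 wild-derived strains, where 6.64% of all probe sets were, and 1 was lower, where 5.55% were. That gene was Zfp971, at 4.03 ± 0.58 (SD, n = 5) against 7.26 ± 1.85 (n = 35). The difference was -3.23 ± 0.81 (SE), with an adjusted p of 0.00546 by limma. The wild-derived values were 3.42 in JF1/Ms, 3.48 in MSM/Ms, 4.00 in CAST/EiJ, 4.53 in PWD/PHJ and 4.69 in WSB/EiJ. All 5 lay below the classical median of 8.30, but 11 classical strains were in the same lower set and only JF1/Ms and MSM/Ms were below the classical range. With each wild-derived strain left out in turn the difference stayed between -3.40 and -3.08.

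At an unadjusted p under 0.05, 8 of the 34 genes (23.5%) differed between the origins, a share no larger than the 26.6% of all probe sets. Beside Zfp971 these were Zfp959, lower by -0.24 ± 0.10 (SE), and Zfp951, Zfp957, Zfp953, Zfp944, Zfp975 and Zfp980, higher by 0.17, 0.16, 0.23, 0.40, 0.44 and 0.49. Their adjusted p-values lay between 0.068 and 0.124 (limma). For Zfp953 the 5 wild-derived strains had 9.06 ± 0.17 (SD) and all were above the classical median of 8.82. For Zfp980, MSM/Ms at 5.79 was above the classical range and 3 of the 5 wild-derived strains were above the classical median. The median difference was 0.02 over the 34 genes and 0.03 over all probe sets.

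Each strain was next set against C57BL/6J, whose sequence the probes follow and whose 5 arrays are shared by all 39 comparisons. A gene counted when limma's adjusted p was under 0.05 and the difference was at least 1. Over 1326 gene and strain combinations, 38 were higher than in C57BL/6J (2.87%), where 0.929% of all probe sets were, and 99 were lower (7.47%), where 0.688% were. The lower counts came from few genes. Zfp961 was lower in 26 strains, from -1.51 ± 0.17 (SE) in RIIIS/J to -2.68 in NZB/BINJ, and Zfp991 in 24 strains, down to -2.83 ± 0.23 in KK.Cg-Ay/J. Zfp971 was lower in 18 strains, from -1.05 ± 0.29 in A/J to -5.46 in JF1/Ms. Zfp950 was lower in 14, Zfp943 in 8, Zfp942 and Zfp985 in 3 each, Zfp935 in 2 and Zfp944 in 1.

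The higher counts came mainly from Zfp979 and Zfp949. Zfp979 was higher in 16 strains, by 3.44 ± 0.20 (SE) in NZB/BINJ to 5.3 in NOD/ShiLtJ, and Zfp949 in 14, by 1.26 ± 0.18 in MRL/MpJ to 2.31 in WSB/EiJ. Zfp975, Zfp983 and Zfp985 were higher in 2 strains each, and Zfp980 and Zfp991 in MSM/Ms alone, by 2.57 ± 0.25 and 1.67 ± 0.23. For Zfp961, Zfp971 and Zfp950 C57BL/6J was the second highest of the 40 strains. For Zfp979 it was the fourth lowest.

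Counts for single strains ran from none to 8. C57BL/10J had no gene counted, where 0.514% of probe sets were higher and 0.0321% lower. NOR/LtJ had none either, where 0.449% were higher and 0.381% lower. C57BLKS/J(662) was lower for Zfp961 and higher for none, where 0.148% of probe sets were lower and 0.686% higher. C57L/J (668) was lower for Zfp991 and Zfp942, where 0.534% were lower and 0.762% higher. Titled C57BR was lower for Zfp991, where 0.353% were lower and 0.209% higher. NZB/BINJ had the most, with 7 genes lower, where 1.61% of probe sets were, and 1 higher, where 0.863% were. Without NZB/BINJ 37 combinations were higher and 92 lower.

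Related strains were compared in 5 pairs by the same rule. Between 129S1/SvImJ and LP/J(676), 1 gene differed, where 0.365% of all probe sets did. Zfp935 was 8.69 and 8.66 on the arrays of 129S1/SvImJ and 6.32 and 7.01 on those of LP/J(676), a difference of 2.01 ± 0.25 (SE, adjusted p = 7.44e-08, limma). Between CBA/J and CBA/CaJ no gene was called, where 0.490% of probe sets were, and 3 of the 34 genes had an unadjusted limma p under 0.05, where 11.8% of probe sets did. Zfp979 and Zfp949, high in both, measured 7.54 and 10.08 in CBA/J and 7.42 and 9.93 in CBA/CaJ.

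NOD/ShiLtJ and NOR/LtJ differed in 2 genes, where 1.14% of probe sets did. NOR/LtJ is known as a strain of mostly NOD background with segments from C57BLKS/J. Zfp979 was 8.14 and 8.49 in NOD/ShiLtJ and 3.24 and 3.32 in NOR/LtJ, a difference of 5.04 ± 0.24 (SE, adjusted p = 3.58e-22, limma). Zfp985, the next gene on the chromosome, was 7.19 and 7.45 against 5.69 and 6.35, a difference of 1.30 ± 0.20 (adjusted p = 1.03e-05, limma). Without the first array of NOR/LtJ the difference in Zfp985 was 0.97, under the 2-fold rule. In C57BLKS/J(662) Zfp979 measured 3.03 and Zfp985 6.20, and 24 of the 40 strains were in the low set of Zfp979. Whether a C57BLKS/J segment has a part in these differences was not tested. Zfp933, in the same run, differed by 0.71 ± 0.19 (adjusted p = 0.0143, limma), below the 2-fold rule.

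JF1/Ms and MSM/Ms, both from Japanese mice, differed in 3 genes, where 0.758% of probe sets did, and all 3 lie in the chromosome 4 run. Zfp991 was 5.56 and 4.33 in JF1/Ms and 8.52 and 8.15 in MSM/Ms, a difference of -3.39 ± 0.28 (SE, adjusted p = 1.12e-13, limma). Zfp985 was 4.87 and 4.98 against 7.71 and 7.66 (-2.76 ± 0.20, adjusted p = 2.69e-15, limma). Zfp980, dim in both strains, was 3.02 and 3.32 against 5.29 and 6.29 (-2.62 ± 0.30, adjusted p = 3.22e-09, limma). Zfp979, beside them, was low in both strains.

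NZB/BINJ was lower than NZW/LacJ in 5 genes, where 3.94% of probe sets differed, and this pair rests on the strain whose arrays stood apart. The genes were Zfp949 (-2.32 ± 0.22, SE), Zfp942 (-1.79 ± 0.27), Zfp971 (-1.62 ± 0.35), Zfp943 (-1.57 ± 0.23) and Zfp979 (-1.20 ± 0.24), each with an adjusted limma p of at most 0.000356. Zfp949 measured 6.85 and 7.81 in NZB/BINJ and 9.62 and 9.68 in NZW/LacJ, without overlap. Without the first NZB/BINJ array 3 genes were called, Zfp943, Zfp949 and Zfp954, and the difference in Zfp979 was -0.52 (adjusted p = 0.123, limma). Without the second, 9 were.

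**Figure D4:**
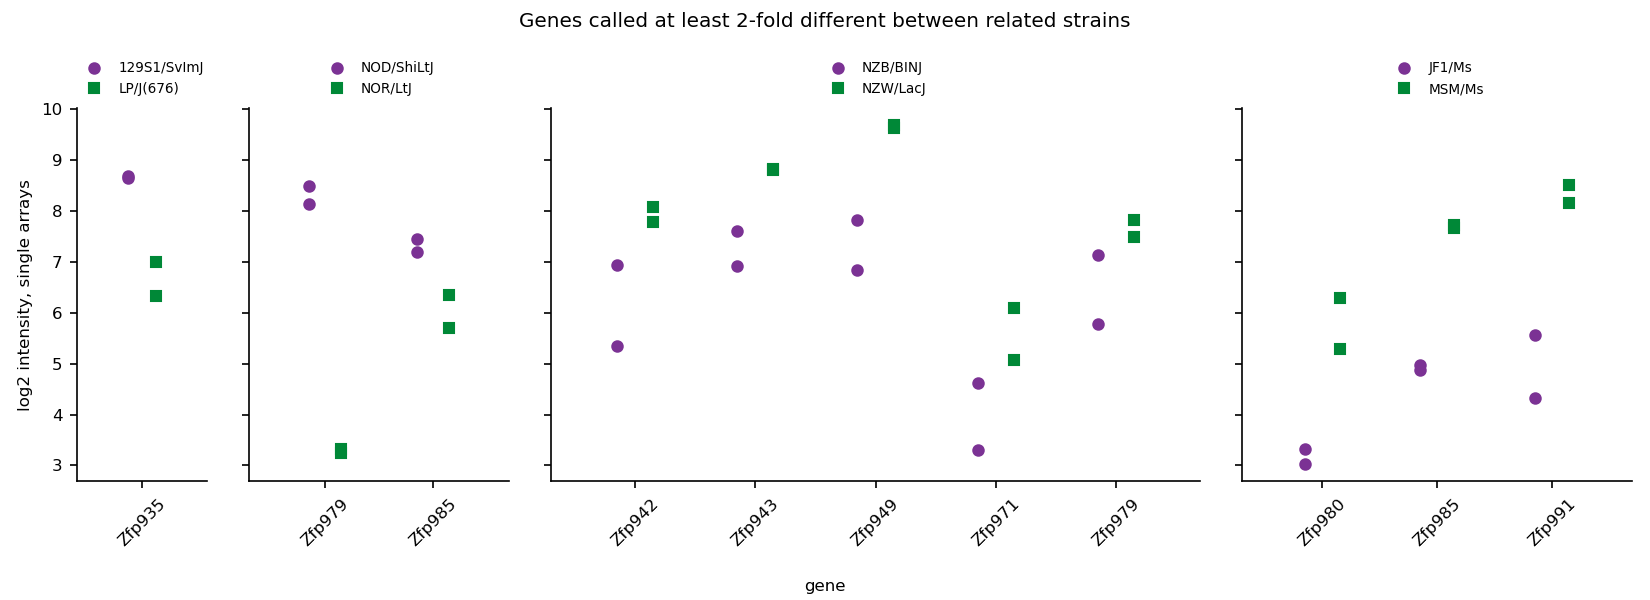
Log2 intensity of single arrays for the genes with a difference of at least 1 between related strains, 1 panel per pair, circles for the first and squares for the second strain. No circle overlaps the squares of its gene, and the 2 circles of NZB/BINJ lie farther apart than the squares of NZW/LacJ, as for Zfp942 at 5.35 and 6.93.

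Pooled over the runs, the correlation across strains had a higher median between neighbouring genes than between distant ones, and this was not tested. Genes were taken as neighbours when at most 20 protein-coding genes lay between consecutive members in RefSeq order, which gave 3 runs with 16 of the 34 genes and left 18 alone. Over the 40 strain means, which share the same arrays, Pearson's r had a median of 0.26 for 44 pairs within a run (-0.36 to 0.73) and 0.04 for 517 other pairs (-0.45 to 0.74). Without NZB/BINJ the medians were 0.21 and 0.04. Among the genes with a 2-fold range the medians were 0.43 for 20 pairs within a run and 0.08 for 100 other pairs. The runs were not alike. On chromosome 17 r ran from -0.36 (Zfp942 with Zfp946) to 0.73 (Zfp942 with Zfp944), with several negative pairs. On chromosome 4 only Zfp933 with Zfp991 was negative (-0.10), and the highest pair was Zfp933 with Zfp985 (0.67).

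Within runs the highest values were those of Zfp942 with Zfp944 (0.73, and 0.67 without NZB/BINJ), Zfp931 with Zfp971 (0.70), Zfp933 with Zfp985 (0.67) and Zfp942 with Zfp943 (0.64). Zfp979 correlated with Zfp985 at 0.55 and with Zfp933 at 0.49. The highest value of all was between genes on different chromosomes, Zfp944 on 17 and Zfp958 on 8 (0.74, and 0.70 without NZB/BINJ). These correlations are descriptions over strains that share ancestry, and what part near-identical copies under the probes have in them was not tested.

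**Figure D5:**
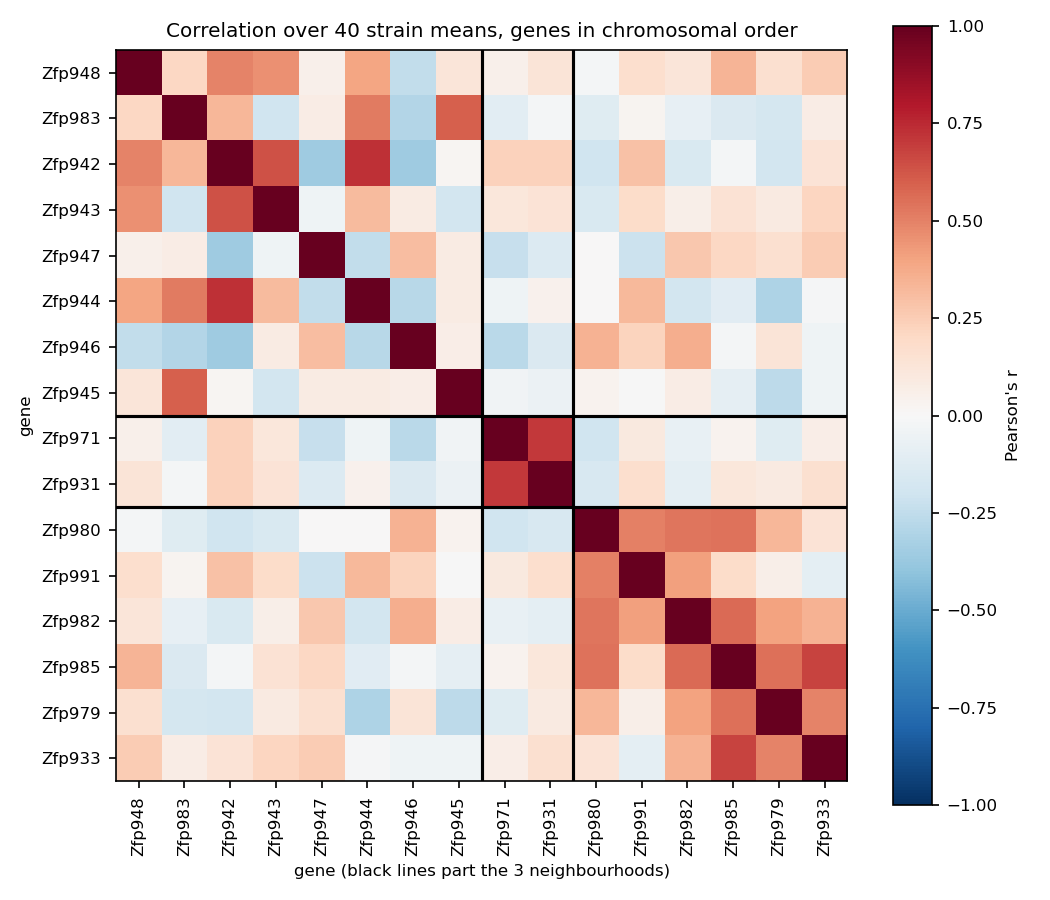
Pearson's r over 40 strain means (colour) between the 16 genes that lie in runs, in chromosomal order, with black lines between the 3 runs on chromosomes 17, 2 and 4. The block of Zfp980 to Zfp933 is mostly red, with r = 0.67 for Zfp933 and Zfp985, while off-block squares are pale. The block of Zfp948 to Zfp945 holds both signs, from r = -0.36 for Zfp942 and Zfp946 to 0.73 for Zfp942 and Zfp944.

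Promoter windows were matched for 32 of the 34 genes, all but Zfp930 and Zfp991. A CCAAT box on either strand was present in 21 (65.6%), against 37.9% of the windows of 27025 genes, and a GGGCGG box in 13 (40.6%), against 35.9%. TATAAA was in none of the 32 and in 14.2% of all windows. The median GC content was 52.17% and 52.67% over all. Median identity was 50.33% for 39 pairs within a run and 46.67% for 457 other pairs. The 5 pairs most alike, at 84.67% or more, all lay within a run. The next most alike, Zfp958 with Zfp971 (68.33%) and Zfp950 with Zfp971 (66.33%), did not share a run. The boxes are letters found in the reference strain's windows, not bound sites.

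The 3 genes most like each of the 6 most variable ones were sought among 2329 genes with an SD of strain means of at least 0.3 and a highest strain mean of at least 7, by Pearson's r over 40 strains. For Zfp961 they were Lpar2, a lysophosphatidic acid receptor (0.82), Mrpl34, a mitochondrial ribosomal protein (0.77), and Tmsb10 (0.65). Lpar2 and Mrpl34 lie on the same chromosome with 93 and 23 protein-coding genes between. For Zfp979 they were Dhrs3, a retinal reductase (0.68), Scmh1 (0.59) and Rps19-ps3 (0.58). Dhrs3 and Scmh1 lie on the chromosome of Zfp979 with 17 and 413 protein-coding genes between. For Zfp971 they were Wdr77 (0.75), Asnsd1 (0.66) and Fam169b (0.65), all on other chromosomes. For Zfp949 they were Galnt3 (0.57), Fundc1 (0.52) and Cd3g, for Zfp991 Cebpzos (0.67), Ufl1 and Idua, and for Zfp985 Rps19-ps3 (0.68), Zfp933 and Zfp979. Cd3g lies on the chromosome of Zfp949 and Ufl1 on that of Zfp991, with 379 and 1058 protein-coding genes between.

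The partners through which KRAB proteins act were measured too. Of 28 listed co-repressor genes 26 had a probe set of their own. Of these 24 passed the F test and 13 also had a 2-fold range, against 56.0% and 24.5% of all probe sets, and their median SD was 0.21. All but Chd3, Uhrf1, Smarcad1 and Suv39h2 had a mean over all arrays of at least 7. Of all probe sets with such a mean, 84.9% passed and 42.5% had the 2-fold range. Trim28, the KRAB-binding scaffold, ran from 7.58 in JF1/Ms to 8.61 in NON/ShiLtJ, and Setdb1, the histone methyltransferase, from 7.47 in NOR/LtJ to 8.52 in JF1/Ms. Cbx5, a heterochromatin protein, had the largest SD, 0.67, with 8.49 in NON/ShiLtJ and 6.16 in NOR/LtJ. Cbx5, Dnmt1, the maintenance DNA methyltransferase, and Uhrf1, which guides it, were highest in NON/ShiLtJ, as was the list of 9 measured cell cycle genes, with a mean of 9.99 there and 7.25 in NOR/LtJ. The part of cycling cells in this was not tested.

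Between origins, 2 of the 26 co-repressor genes were higher in wild-derived strains and 1 lower, near the shares of all probe sets (6.64% and 5.55%). Trim24, a TRIM28 relative, was higher by 0.95 ± 0.17 (SE, adjusted p = 0.000173, limma) and Morc3, a chromatin ATPase, by 0.29 ± 0.08 (adjusted p = 0.014, limma). Trim28 was lower by -0.29 ± 0.08 (adjusted p = 0.0135, limma). Some markers differed between the origins too, and their part in these results was not tested. Kit, a progenitor and mast cell receptor, differed by -1.54, the replication gene Pcna by -1.13, the neutrophil genes Camp and S100a8 by -0.37 and -0.20 and the B cell gene Cd79b by -0.25. The eosinophil gene Siglecf was higher by 0.54 and the monocyte gene Csf1r by 0.45 (adjusted p of at most 0.0373 for these 7, limma). The co-repressor list mean was lowest in NZB/BINJ, at 8.19, and next lowest in MA/MyJ, at 8.24.

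Marker lists of other cell types were set beside the genes as a description over the same arrays. The 4 measured erythroid genes (Alas2, Klf1, Epor and Ermap) had means over all arrays from 6.01 to 6.95, in the dim range. None of them passed the F test. Their list mean ran only from 6.39 in titled Balb to 6.73 in LP/J(676). Over the strains r with that mean was -0.75 for Zfp942, -0.64 for Zfp944 and -0.54 for Zfp935, and -0.74, -0.59 and -0.53 without NZB/BINJ. Zfp949 had r = -0.53 with the 7 monocyte and macrophage genes (-0.50 without NZB/BINJ), whose list means ran from 6.35 to 7.15, and 6 of those 7 passed. For Zfp979, Zfp971, Zfp961, Zfp991 and Zfp985 the value largest in size over these marker and co-repressor lists was 0.35, for Zfp979 with the cell cycle genes. The part of other cells in the strain differences was not tested.

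Further genes of the same number range were measured only together with others. The platform gives 26 probe sets with several symbols that include 30 genes of the range, 18 of which have no probe set of their own and are not counted among the 34. Of these probe sets 21 passed the F test and 20 had a 2-fold range, against 56.0% and 24.5% of all probe sets, with a highest SD of 1.10. Which gene their signal comes from cannot be told apart.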

How the data were processed

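The authors deposited 1 table of linear probe set intensities for 24922 probe sets on 81 arrays. Affymetrix Power Tools and RMA are named per the submitters' processing notes, with versions not given, and the genome build is not given in the sources used here. Their linear scale is inferred from their size. Log2 was taken without further normalization. Of the probe sets 21425 carried a single gene symbol, 1399 several and 2098 none.

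Array groups follow the titles. Strain differences, the difference of each strain from C57BL/6J and 5 related pairs were tested in 1 limma model over all 81 arrays, and the origins in a limma model over 40 strain means (limma 3.58.1, R 4.3.3), with Benjamini-Hochberg adjustment over all probe sets at 0.05. P-values of the model over arrays rest on the spread between pools of mice of a strain. Those of the origin model rest on the spread between strain means. The code was tested on simulated data. Alternatives were quantile normalization, groups by background label, the mean of a gene's probe sets, a minimum mean of 7, the replicate number as a block, and leaving out arrays or strains. Leaving out NZB/BINJ was chosen after seeing the data. The genes and lists were chosen with earlier results of these data known. Any of the 34 genes could be named. Values per strain were given for the 12 most variable by SD of strain means that passed and reached 7 in some strain, and for genes called between origins or in a related pair. The values of Zfp948, Zfp950, Zfp953 and Zfp975 were added after they were seen. Promoters, gene order and synonyms are RefSeq's on GRCm38.p6, and promoters were compared by global alignment.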

Additional observations from a re-analysis of the deposited data

Results flagged for a closer look

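The first C57BL/6J array measured Zfp952 at 6.97, while the other 4 arrays of that strain lay between 6.47 and 6.56. The gap, 0.826 of the whole range of the 5 arrays, is above Dixon's 95% critical value for 5 samples. C57BL/6J was the only strain with enough arrays for this comparison, which was made for 34 genes, and chance alone would flag about 5% of them.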

How the results depend on the processing

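Of 117 alternative counts, 101 stayed within 1.5 times the reported count and 16 moved. With a minimum mean of 7, 9 of the 34 genes were tested: 9 passed, 8 with a 2-fold range, 1 was higher and 0 lower in wild-derived strains, 16 combinations were higher and 40 lower than in C57BL/6J, and 0, 3 and 0 genes differed in the NOD, NZB and JF1 pairs. Fewer genes tested accounts for the smaller counts, not for the gene gained. Zfp953 was the 1 gene higher in wild-derived strains there, under quantile normalization and without groups of 1 array, and Zfp980 without CAST/EiJ or JF1/Ms. Without WSB/EiJ 2 were lower, Zfp959 and Zfp971. Grouping by background label joins the arrays titled C57BR to those of CBA/CaJ. In that grouping 2 genes differed between CBA strains, Zfp949 and Zfp979. There Zfp979 also kept its difference of -1.20 between NZB/BINJ and NZW/LacJ but did not pass (adjusted p = 0.124, limma). With the mean of all probe sets NOD/ShiLtJ and NOR/LtJ differed in 1 gene, as Zfp985 fell to 0.72. Leaving out each array gave 23 to 26 genes passed, 16 to 17 with a 2-fold range, 0 to 1 higher and 1 to 2 lower in wild-derived strains (2 without the first PWD/PHJ array), 36 to 39 higher and 89 to 102 lower than in C57BL/6J, 1 to 2 for NOD and NOR (1 without the first NOR/LtJ array) and 3 to 9 for NZB and NZW. Without the first NZB/BINJ array Zfp942 fell just short of 2-fold against NZW/LacJ (adjusted p = 0.00763, limma), Zfp971 measured -0.95 (adjusted p = 0.0905, limma), and without the first NZW/LacJ array Zfp971 measured -1.10 (adjusted p = 0.059, limma). Except where stated, the cause was not tested. No result reversed. With the replicate number as a block 24 genes passed, 16 with a 2-fold range, and 42 combinations were higher and 78 lower than in C57BL/6J. The difference between the first and second array of a strain had a median r of 0.005 between strains (630 pairs of 36 groups, -0.50 to 0.51). In 163 of these pairs r was above 0.1. The numbers are taken not to pair the samples across all strains, and whether some strains share array deviations was not tested.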
